A study of Mus musculus with 12 samples.

Results

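Growth plate cartilage was compared with articular cartilage in mice carrying AcanCreERT2, a tamoxifen-inducible Cre recombinase placed at the aggrecan gene Acan and so active in cells that express it. The 6 libraries with Cre were taken out of the 12 in the series, 3 of each tissue, and were paired by floxed alleles and day. The pairs were Sox9fl/fl at 7 days, Sox9fl/fl at 14 days, and Sox8fl/fl Sox9fl/fl at 14 days, each with AcanCreERT2. The column headers name a further R26tdT/+ reporter allele in the Sox9 sets, in mutants and controls alike. The other 6 libraries had the same floxed alleles, days and tissues without Cre and served as the reference. All mice were 3 months old, and the labels do not name the event that started the day count. Both cartilages were cut out of frozen knee sections by laser. The question was which differences between the tissues remained, and which appeared, once Sox9 was deleted.

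Articular cartilage covers the joint surface for life, and its upper layer makes lubricin and other surface proteins. Growth plate cartilage lengthens bones: its chondrocytes divide in columns, stop dividing, enlarge as hypertrophic cells and are then replaced by bone with the help of osteoclasts. SOX9 is the transcription factor that switches on the cartilage matrix genes in both, and SOX8 is a close relative.

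With 1 library for a genotype, day and tissue, the 3 mutant pairs were not repeats of a single condition, and nothing in the labels ties a region to an animal. The p-values therefore measure only the spread between these libraries. Values were the authors' normalised RPKM, a read density per transcript length and library size, and are printed below in the order Sox9 day 7, Sox9 day 14, Sox8 Sox9 day 14. Differences are growth plate minus articular on the log2(value + 1) scale, with the standard error. A gene was called at a Benjamini-Hochberg adjusted p under 0.05 in limma over all 14712 listed genes. The lowest listed value was 1, which 1299 to 2823 genes per library held, so a difference against a tissue at 1 is limited by that floor. Read depth is unknown. The listed values of a library summed to between 488389 and 1350275, and the gene AC087541.1 alone held 24% to 45.1% of each sum. The levels printed below were not rescaled for this. Xist was at the floor and Y-linked genes were present in all 8 libraries of the Sox9 sets, and the reverse held in the 4 libraries of the Sox8 Sox9 set, so sex goes with the set and not with the tissue or the Cre.

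Sox9 itself stood at 304, 309 and 282 in mutant articular cartilage and at 236, 148 and 36.0 in mutant growth plate. It was lower in the growth plate in every pair and the groups did not overlap, with the widest gap in the Sox8 Sox9 pair. The difference of -1.45 ± 0.44 did not pass the test (adjusted p 0.078). In the controls Sox9 was at 408, 349 and 213 in articular cartilage and at 314, 335 and 308 in growth plate, a difference of 0.03 ± 0.44. The articular library labelled Sox8 Sox9 mutant held more Sox9 than its control, against its label. The labels do not say which part of Sox9 is floxed, so a value over the whole gene does not check the deletion. Sox8 was between 1.63 and 8.66 in the 6 mutant libraries and between 15.3 and 29.0 in the 6 controls, and its tissue difference in mutants was -0.08 ± 0.47 (adjusted p 0.954). Acan, which encodes the main cartilage proteoglycan and drives the Cre, stood at 430.0, 316 and 347 in mutant articular cartilage and at 274, 288 and 27.8 in mutant growth plate. Its difference of -1.46 ± 0.61 did not pass either (adjusted p 0.202).

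The mutant growth plate of the Sox8 Sox9 set stood apart in cartilage genes. The summed level of 21 cartilage matrix genes was 6707, 7860 and 2445 in mutant growth plate and 9437, 7790 and 9154 in mutant articular cartilage. In control growth plate the same sum ran from 33053 to 49813, above all 3 control articular libraries, which ran from 14749 to 19919. Without the Sox8 Sox9 set the differences were -0.71 for Sox9 (adjusted p 0.206), 0.75 for Sox8 (0.196), which turned its sign, and -0.39 for Acan (0.457). For genes and lists described below, the value in the Sox9 sets alone is stated where it ends a call or moves a count of calls by over 1.5 times.

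Between the mutant tissues 1501 genes differed, 10.2% of those listed, each in 1 direction across the 3 pairs. Of these, 632 were higher in growth plate (4.3%) and 869 in articular cartilage (5.91%), and the median over all genes was -0.05. These shares are the background for the list counts below, and the lists were chosen with earlier results of these data known. The controls gave 1896 calls (12.9%), with 627 higher in growth plate (4.26%) and 1269 in articular cartilage (8.63%), and a median of -0.10. At an unadjusted p under 0.05 the shares were 23.2% in mutants and 26.3% in controls. Called with the same direction in both were 876 genes, which is 46.2% of the control list and 58.4% of the mutant list; 265 were higher in growth plate and 611 in articular cartilage. The 2 comparisons share no library, but they share 1 estimate of the spread per gene, so the lists are not independent. With the libraries of each genotype fitted alone, the shared calls numbered 366. The count in mutants fell to 759 when the Sox9 sets were fitted alone, to 781 when the 6 mutant libraries were fitted alone, and to between 796 and 1362 when a single library was left out. It was 796 or 797 without a mutant library of the Sox9 day 7 pair and 960 or 966 without one of the Sox9 day 14 pair. Within its block, a library whose partner is left out no longer informs the tissue difference. Leaving out either library of a pair thus removes the whole pair from the comparison, here and below.

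A call in controls and none in mutants does not show a loss. Of 1019 genes called in controls only, 866 had the same sign in mutants, and of 624 called in mutants only, 540 had the same sign in controls. The change of the tissue difference, tested as the interaction of tissue and Cre, was called for 27 genes, 0.184% of those listed, with 7 moving toward the growth plate (0.0476%) and 20 toward articular cartilage (0.136%). At an unadjusted p under 0.05 there were 1580 (10.7%). Among the 27 were 15 genes called in controls only, 5 called in mutants only, 6 called in both with the same direction and 1 that turned. These calls depended on the libraries in the fit: 0 of the 27 were called in the Sox9 sets alone, where 1270 genes had an unadjusted p under 0.05. No more than 4 genes were called after leaving out any single one of the 12 libraries, and with it the comparison of its pair. The sign of all 27 was the same in each of these fits.

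**Figure D1:**
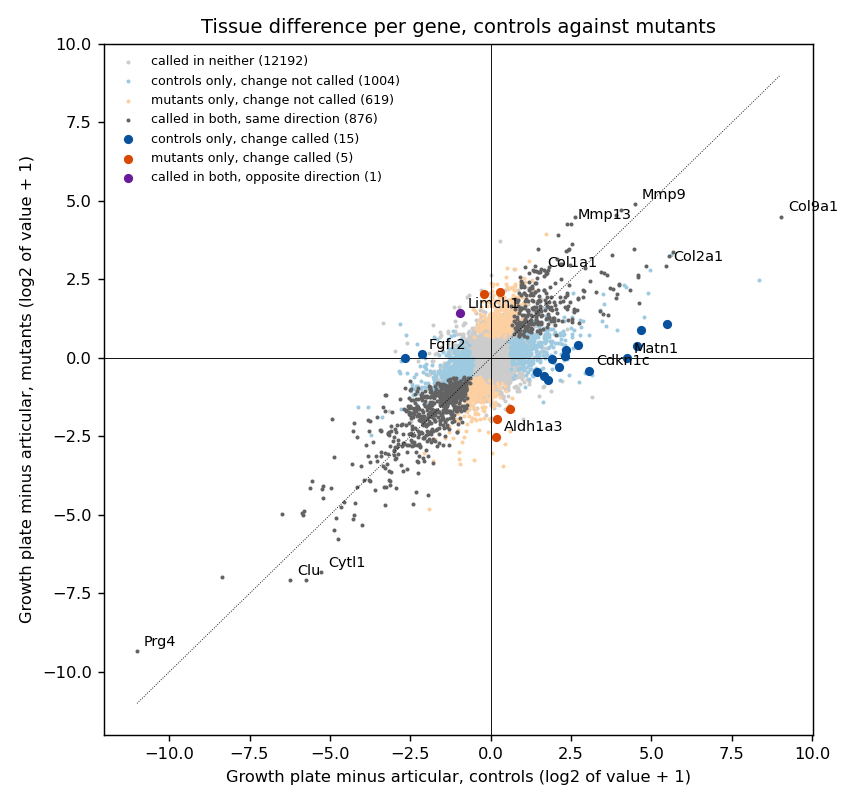
Tissue difference of each of 14712 genes in mutants (vertical axis) against controls (horizontal axis), both as growth plate minus articular on the log2(value + 1) scale, coloured by where the gene was called. Dark grey points, called in both with the same direction, lie where the differences have the same sign. Some are well off the dotted line of equal differences, such as Col9a1 (9.03 in controls, 4.50 in mutants). The blue, orange and purple large points are the genes whose change was called, apart from 6 that were called in both with the same direction.

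The largest articular excess was that of Prg4, which encodes lubricin, the lubricant of the joint surface. It stood at 10363, 9137 and 20422 in mutant articular cartilage and at 6.06, 7.96 and 111 in mutant growth plate. The groups were far apart, and the highest growth plate value was in the Sox8 Sox9 library. Its difference was -9.34 ± 0.69 in mutants (adjusted p 3e-04) and -11.01 ± 0.69 in controls, and the change was not called (adjusted p 0.6). Clu, which encodes the secreted chaperone clusterin, stood at 3065, 2655 and 2369 in articular cartilage and at 21.2, 26.7 and 11.7 in growth plate. Its difference was -7.08 ± 0.33 in mutants (adjusted p 1.62e-05) and -6.25 ± 0.33 in controls. Cilp, which encodes a cartilage intermediate layer protein, stood at 4726, 3884 and 4166 against 143, 66.8 and 2.86. The articular values were alike while the growth plate values spread widely, being lowest in the Sox8 Sox9 library, and the difference was -6.98 ± 0.85 (adjusted p 0.00249).

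Cytl1, a secreted cytokine-like protein of cartilage, stood at 3596, 3631 and 2891 in mutant articular cartilage and at 53.3, 24.2 and 18.1 in mutant growth plate, a difference of -6.82 ± 0.37 (adjusted p 2.67e-05). It was the single member of the cartilage matrix list that was higher in articular cartilage in controls too, at -5.27 ± 0.37. Htra4, a secreted serine protease, stood at 311, 446 and 274 against 1.34, 1.61 and 1.58, close to the floor in every growth plate library, with a difference of -7.07 ± 0.28. Cdon, a cell surface co-receptor for hedgehog ligands, stood at 189, 148 and 169.5 against 5.08, 3.91 and 3.97. Neither tissue varied much between sets, and the difference was -5.00 ± 0.17 in mutants and -4.27 ± 0.17 in controls.

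The other genes of the 10 with the largest articular excess were Angptl7, an angiopoietin-like secreted protein (-5.78), Tnxb, the matrix glycoprotein tenascin X (-5.48), Hbegf, a ligand of the EGF receptor (-5.33), and Cdr1 (-5.09). Cdr1 was at the floor in all 3 mutant growth plate libraries and at 50.4, 74.2 and 81.1 in articular cartilage. Cdr1 overlaps C230004F18Rik on the other strand. The libraries were stranded, but no label says whether strand was used in counting, so whether its values hold reads of both is unknown. All 10 were also called in controls with the same direction. Each kept its call in every alternative fit.

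Articular and superficial zone genes stood on the articular side as a list. Of 15 measured members, 10 were higher in mutant articular cartilage and 0 in growth plate, with a median of -2.36 against -0.05 over all genes. The pair medians were -2.99, -2.37 and -2.79. All 10 were called in controls as well, where 12 members were higher in articular cartilage and the median was -2.96. Creb5, a transcription factor of the CREB family, stood at 76.0, 83.4 and 102 in mutant articular cartilage and at 5.17, 4.33 and 3.12 in mutant growth plate. In the controls 2 of 3 growth plate libraries had it at the floor, and the difference was -4.09 ± 0.25 in mutants and -5.20 ± 0.25 in controls. Erg, an ETS transcription factor of articular chondrocytes, stood at 27.3, 19.3 and 22.8 against 2.56, 2.91 and 6.28, a difference of -2.36 ± 0.30 (adjusted p 0.00162). Frzb, a secreted Wnt antagonist, stood at 17.6, 13 and 20.7 against 3.00, 3.41 and 4.56, a difference of -1.95 ± 0.27. Thbs4 (-2.29, adjusted p 0.0519), Fgf18 (-1.02, adjusted p 0.0611), Vit (-1.49, adjusted p 0.111), Col22a1 (0.84) and Gdf5 (-0.26) did not pass.

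**Figure D2:**
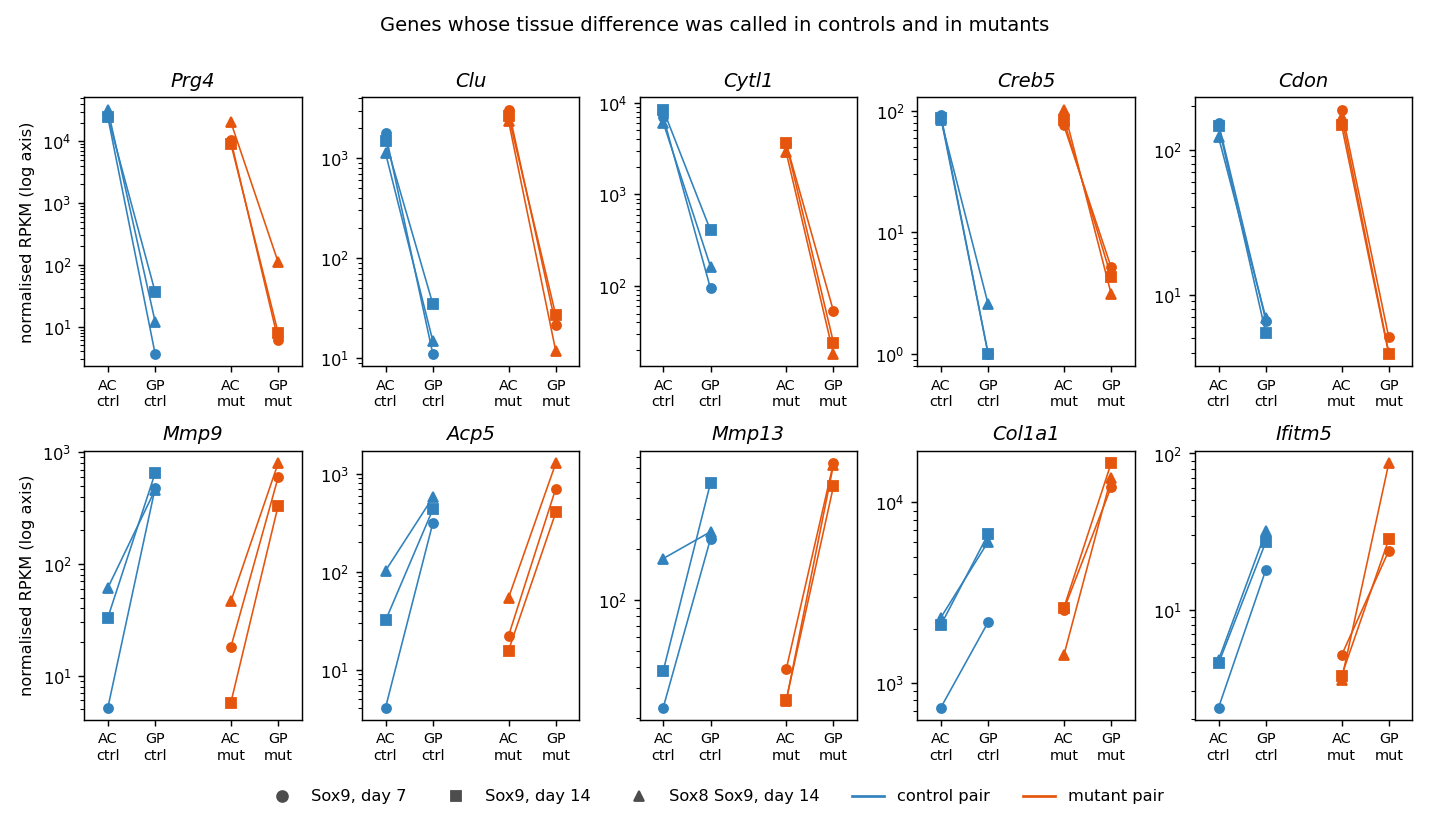
Normalised RPKM (log axis) of 10 genes called with the same direction in controls and mutants, in each articular (AC) and growth plate (GP) library; lines join the 2 tissues of a set, blue for controls and orange for mutants. Every orange line runs the same way as the blue lines of its panel, down for Prg4, Clu, Cytl1, Creb5 and Cdon and up for Mmp9, Acp5, Mmp13, Col1a1 and Ifitm5.

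The growth plate side was led by genes of osteoclasts, the cells that resorb cartilage and bone. Mmp9, a gelatin-cleaving protease of osteoclasts, stood at 18.0, 5.73 and 46.2 in mutant articular cartilage and at 596, 332 and 800.1 in mutant growth plate. The growth plate was higher in each pair, and the difference was 4.90 ± 0.58 in mutants (adjusted p 0.00209) and 4.48 ± 0.58 in controls. Acp5, the tartrate-resistant acid phosphatase by which osteoclasts are stained, stood at 22.1, 15.6 and 54.0 against 709, 405 and 1288. Its difference was 4.70 ± 0.55 in mutants and 4.05 ± 0.55 in controls. Ctsk, the collagen-cleaving cathepsin K, stood at 37.7, 66.1 and 43.2 against 385, 521 and 1100.3, and Atp6v0d2, a subunit of the osteoclast proton pump, at 4.35, 1.06 and 6.38 against 61.4, 51.1 and 182. Their differences were 3.64 ± 0.44 and 4.28 ± 0.35. Nhedc2, a sodium-proton exchanger that stands on none of the gene lists, was at 1.13 or less in mutant articular cartilage and at 23.4, 24.2 and 46.4 in growth plate, a difference of 3.90 ± 0.24.

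Of 10 osteoclast genes 8 were higher in mutant growth plate and 0 in articular cartilage, against 4.3% and 5.91% of all genes. The same 8 osteoclast genes were called in controls. The median was 2.68 in mutants and 1.73 in controls. The summed level of the 10 was 111.6, 118.3 and 199.8 in mutant articular cartilage and 1827.5, 1364 and 3519.5 in mutant growth plate. In controls it ran from 70.3 to 311.7 in articular cartilage and from 1105 to 1468 in growth plate, so the tissues did not overlap in either genotype. Dcstamp, needed for osteoclast fusion, was at the floor in all 3 mutant articular libraries and at 7.73, 7.41 and 23.2 in growth plate. In RNA from tissue, fewer cells of a type and less RNA per cell cannot be told apart.

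Osteoblast and osteocyte genes went the same way. Of 22 members 14 were higher in mutant growth plate and 0 in articular cartilage, where all genes gave 4.3% and 5.91%. The list median was 2.10 and the pair medians were 1.71, 1.57 and 2.90. The controls gave 11 higher in growth plate, 1 in articular cartilage and a median of 1.12, and the 11 were among the 14. Col1a1, the main collagen of bone, stood at 2548, 2604 and 1421 in mutant articular cartilage and at 12168, 16508 and 13734 in mutant growth plate. Its difference was 2.73 ± 0.26 in mutants and 1.55 ± 0.26 in controls. Ifitm5, a membrane protein of osteoblasts, stood at 5.08, 3.75 and 3.53 against 23.8, 28.2 and 86.7, a difference of 2.97 ± 0.36. In both genes the tissues did not overlap, and for Ifitm5 the Sox8 Sox9 growth plate was highest.

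The 3 bone genes called in mutants but not in controls were Postn, the matrix protein periostin (2.39 in mutants, 0.01 in controls), Dmp1, a mineralisation protein of osteocytes (2.15 and 0.04), and Phex, a regulator of phosphate handling (2.40 and 0.91). The change was not called for any of them (adjusted p 0.301, 0.25 and 0.419). Postn lost its call in mutants without any single mutant library of day 14 (at most 0.131), and Dmp1 without any single mutant library (at most 0.0864). In the Sox9 sets alone their adjusted p was 0.0729 and 0.0689. Sost, which encodes the osteocyte Wnt inhibitor sclerostin, was lower in control growth plate at -2.87 ± 0.33 (adjusted p 8.74e-04) and stood at -0.40 ± 0.33 in mutants, and the change was not called (adjusted p 0.105). The summed level of the 22 genes was 5885 to 7241 in mutant articular cartilage and 23964 to 29113 in mutant growth plate, against 3441 to 6081 and 8338 to 16053 in controls. What part these bone and osteoclast genes have in the other growth plate differences was not tested.

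**Figure D3:**
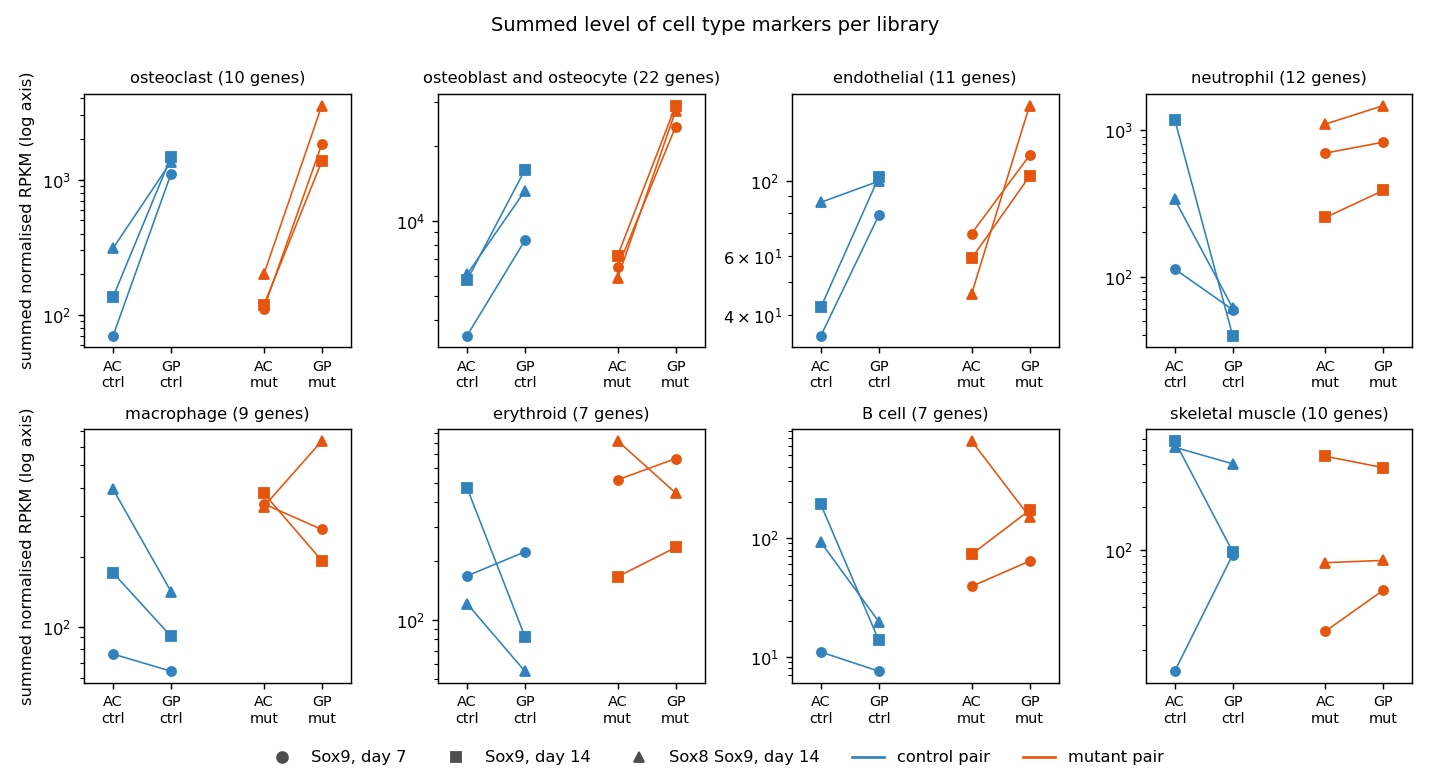
Summed normalised RPKM (log axis) of the listed marker genes of 8 cell types in each articular (AC) and growth plate (GP) library; lines join the 2 tissues of a set, blue for controls and orange for mutants. Osteoclast and osteoblast sums are higher in growth plate in all 6 pairs, and neutrophil sums are 387 or more in mutant growth plate against at most 61.3 in control growth plate.

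Of 45 markers of blood and marrow cells 4 were called (8.89%), near the 10.2% over all genes. The summed level of 12 neutrophil genes was 695, 253 and 1095 in mutant articular cartilage and 825, 387 and 1463 in mutant growth plate. In controls it was 113, 1175 and 336 in articular cartilage and 59.6, 39.6 and 61.3 in growth plate. In mutants 0 of the 12 were higher in growth plate and 1, the iron-binding protein gene Lcn2 (-1.69 ± 0.32, adjusted p 0.0106), in articular cartilage. Lcn2 lost its call without either library of the Sox9 day 7 pair (at most 0.0612) or of the Sox9 day 14 pair (at most 0.0676), with no replicate block (0.274) and with a block per set (0.142). In controls 5 were higher in articular cartilage, and the change was not called for any of the 12. Among 9 macrophage genes Csf1r (2.11 ± 0.37) and Cd68 (1.81 ± 0.39), which osteoclasts also express, were higher in growth plate and Cd14 (-3.89 ± 0.39) in articular cartilage. Cd68 was not called without either mutant library of the Sox9 day 7 or the Sox8 Sox9 pair (at most 0.106) or in the Sox9 sets alone (0.102), and Cdh5 was not called without those same 4 libraries (at most 0.0978). In the Sox9 sets alone 6 macrophage genes were higher in articular cartilage and 1 in growth plate, and without either mutant library of the Sox8 Sox9 pair there were 7 on the articular side. Of 11 endothelial genes 5 were higher in mutant growth plate, among them Egfl7 (1.57 ± 0.18) and Cdh5 (1.76 ± 0.38), a count of 2 in the Sox9 sets alone, 2 without either mutant library of the Sox8 Sox9 pair and 3 without any other single mutant library. None of the genes of B cells (7), T and NK cells (4), red cells (7), platelets (6), skeletal muscle (10), smooth muscle (7) or the MHC class II and interferon list (8) was called in the limma test, while 8 of these 49 had an unadjusted p under 0.05 (16.3%, against 23.2% over all genes). Of 9 adipocyte and stromal genes Cfd alone was called (-3.04 ± 0.69, adjusted p 0.0343), and not when either library of the Sox9 day 14 pair (0.14) or of the Sox8 Sox9 pair (0.145 at most) was left out, in the Sox9 sets alone (0.0849) or with no replicate block (0.0625).

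Fewer cartilage matrix genes were higher in growth plate in mutants than in controls. Of 21 members 7 were higher in mutant growth plate and 3 in mutant articular cartilage, with a median of -0.01, where the controls had 13 and 1 and a median of 2.87. The pair medians were 0.44, 1.33 and -1.56 in mutants and 2.57, 2.69 and 2.72 in controls. In the Sox9 sets alone the counts were 9 and 2 and the median 0.80, and the 7 became 4 without either mutant library of the Sox9 day 7 pair or either control library of the Sox8 Sox9 set. The change itself was called for 2 of the 21, Col9a1 and Matn1.

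Col9a1, a chain of the collagen that decorates cartilage fibrils, stood at 3.05, 3.50 and 1.05 in mutant articular cartilage and at 105, 222 and 17.3 in mutant growth plate. The control growth plate libraries held 2465, 1566 and 1189 and the control articular libraries between 1.94 and 2.34. The tissues did not overlap in either genotype, and the difference was 4.50 ± 0.41 in mutants and 9.03 ± 0.41 in controls. The change of -4.53 ± 0.59 passed (adjusted p 0.0422), but not without any single one of the 12 libraries (0.0574 to 0.173). Col2a1, the main collagen of cartilage, stood at 155, 169 and 279.7 against 1547, 3090.1 and 680.2 in mutants, a difference of 2.92 ± 0.47 (adjusted p 0.00552). The call was lost without either mutant library of the Sox9 day 7 pair (adjusted p 0.0597). Its difference in controls was 5.45 ± 0.47, and the change of -2.52 ± 0.67 did not pass (adjusted p 0.199). Col11a2, another fibril collagen chain, differed by 3.27 ± 0.25 in mutants and 3.76 ± 0.25 in controls. Col11a1 stood at 115, 1 and 54.7 in mutant articular cartilage and at 507, 546 and 590.0 in mutant growth plate. Its difference of 4.54 ± 0.98 (adjusted p 0.0287) rests partly on the day 14 articular library at the floor, and the call was lost without any single library of the Sox8 Sox9 set (adjusted p 0.0605 to 0.0685) and in the Sox9 sets alone (0.141).

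Matn1, the fibril-linking matrilin 1, stood between 1 and 1.61 in all 6 mutant libraries, while the control growth plates held 34.1, 40.7 and 68.2 and the control articular libraries at most 2.80. The tissue difference was -0.01 ± 0.31 in mutants and 4.23 ± 0.31 in controls, and the change of -4.25 ± 0.43 passed (adjusted p 0.0166). It held without either control library of the Sox9 day 14 set and was lost without any other single library (at most 0.137). Matn3, its relative, stood at the floor in all 6 articular libraries of both genotypes, at 12.3, 40.9 and 1.52 in mutant growth plate and at 853, 581 and 555 in control growth plate. Its change of -5.86 ± 0.91, limited by that floor, did not pass (adjusted p 0.0833). Prelp, a leucine-rich matrix protein, went the other way in mutants, at 363, 269.5 and 665 in articular cartilage and 73.7, 56.3 and 11.2 in growth plate. Its difference was -3.43 ± 0.64 in mutants (adjusted p 0.0154) and 0.39 ± 0.64 in controls, and the change did not pass (adjusted p 0.181). Chad, a related protein that binds chondrocytes to collagen, differed by -2.54 ± 0.46 in mutants, a call lost without either mutant library of the Sox9 day 14 pair (at most 0.0633) and in the Sox9 sets alone (0.0561).

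Genes of prehypertrophic and hypertrophic cells split. Of 11 members 5 were higher in mutant growth plate and 2 in articular cartilage, with a median of 0.72 and pair medians of 1.01, 0.68 and -0.19, against 7, 1 and a median of 2.49 in controls. Mmp13, the collagenase of late hypertrophic cells and osteoblasts, stood at 38.7, 25.4 and 25.1 in mutant articular cartilage and at 645, 471 and 632 in mutant growth plate. The tissues did not overlap, and the difference was 4.26 ± 0.54 in mutants (adjusted p 0.00245) and 2.49 ± 0.54 in controls. Pth1r, the receptor for parathyroid hormone and its relative PTHrP, stood at 23.8, 25.5 and 40.5 against 316, 194 and 195, a difference of 2.93 ± 0.26. Ihh, the hedgehog ligand made by prehypertrophic cells, stood at 7.56, 1.98 and 9.62 against 26.9, 11.8 and 2.40, so that the Sox8 Sox9 pair ran against the other pairs and the difference of 0.72 ± 0.68 did not pass (adjusted p 0.587).

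Col10a1, the collagen of hypertrophic chondrocytes, took the opposite side from Mmp13. It stood at 358, 269 and 177 in mutant articular cartilage and at 48.0, 71.7 and 15.4 in mutant growth plate, lower in growth plate in every pair with no overlap. The controls held 4329, 3046 and 1284 in articular cartilage and 3026, 5112 and 2774 in growth plate. The difference was -2.73 ± 0.37 in mutants (adjusted p 0.00213) and 0.45 ± 0.37 in controls, and the change of -3.18 ± 0.53 did not pass (adjusted p 0.0789). Nt5dc1 overlaps Col10a1 on the other strand.

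Panx3, a channel protein of hypertrophic cells and osteoblasts, was at 1.15 or less in mutant articular cartilage and at 22.4, 15.3 and 18.0 in mutant growth plate. It kept its side at 3.24 ± 0.17, but the excess was smaller than the 5.55 ± 0.17 in controls, and the change of -2.32 ± 0.24 passed (adjusted p 0.0166), though not without any single library (0.0622 to 0.137). Cdkn1c, the cyclin kinase inhibitor p57 that holds chondrocytes out of division as they enlarge, stood at 14.7, 13.6 and 11.2 in mutant articular cartilage and at 9.22, 10.1 and 9.69 in mutant growth plate. The control growth plates held 126, 106 and 159 and the control articular libraries 15.6, 13.1 and 15.1. The difference was -0.40 ± 0.17 in mutants (adjusted p 0.202) and 3.06 ± 0.17 in controls, and its change of -3.46 ± 0.24 had the smallest adjusted p of the 27 (0.00387). It was lost without any single library of the Sox9 day 7 set, either mutant library of the Sox9 day 14 set or either control library of the Sox8 Sox9 set (at most 0.09).

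The starts of Creb5, Mmp13 and Col10a1 are shown because these genes carry the articular difference that was kept, the growth plate difference that was kept, and an articular difference that was called in mutants, though its change from controls was not. Each is 250 bases before to 50 after the gene start on the plus strand of GRCm38.p6, from RefSeq, read 5′ to 3′, with the match to a searched motif in capitals. Creb5 has 2 promoters there, and the one shown is chr6:53287053-53287352. Mmp13 is chr9:7272264-7272563 and Col10a1 is chr10:34389731-34390030.
Creb5: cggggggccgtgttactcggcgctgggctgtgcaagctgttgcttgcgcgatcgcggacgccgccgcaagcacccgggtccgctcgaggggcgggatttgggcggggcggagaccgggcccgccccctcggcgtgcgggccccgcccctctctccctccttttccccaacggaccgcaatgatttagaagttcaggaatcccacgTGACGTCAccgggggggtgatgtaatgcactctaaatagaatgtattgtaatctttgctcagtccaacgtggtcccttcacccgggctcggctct
Mmp13: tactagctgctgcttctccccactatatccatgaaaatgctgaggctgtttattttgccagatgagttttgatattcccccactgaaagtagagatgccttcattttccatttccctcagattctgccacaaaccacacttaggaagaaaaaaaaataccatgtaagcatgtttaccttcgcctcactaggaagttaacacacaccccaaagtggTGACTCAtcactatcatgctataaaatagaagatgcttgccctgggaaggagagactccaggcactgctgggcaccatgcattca
Col10a1: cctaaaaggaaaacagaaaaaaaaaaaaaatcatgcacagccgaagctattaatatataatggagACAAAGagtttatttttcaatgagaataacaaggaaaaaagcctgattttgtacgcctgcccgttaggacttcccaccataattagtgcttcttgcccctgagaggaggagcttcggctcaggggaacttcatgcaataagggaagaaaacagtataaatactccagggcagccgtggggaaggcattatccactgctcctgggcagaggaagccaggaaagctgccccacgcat

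The capitals in Creb5 are the cyclic AMP response element TGACGTCA, which begins 45 bases before the gene start. Those in Mmp13 are the AP-1 motif TGACTCA, 35 bases before the start, and those in Col10a1 the SOX core ACAAAG, 185 bases before it. SOX was searched as ACAATG or ACAAAG, all motifs on both strands, and no searched motif contains another. Of all tabulated promoters, 1.79% held the response element, 5.2% AP-1 and 28.6% SOX. Among promoters of genes higher in mutant growth plate the shares were 1.4%, 5.44% and 23.9%, and among those of genes higher in mutant articular cartilage 2.33%, 5.65% and 17.8%. The listed genes as a whole gave 2.92%, 3.87% and 20%. These matches describe the letters and not the binding of a factor.

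The remaining called changes narrowed a growth plate excess, narrowed an articular excess, widened or opened a difference, or turned it. Ppa1, a cytosolic pyrophosphatase, stood at 5.74, 8.78 and 7.92 in mutant articular cartilage and at 27.1, 26.1 and 6.15 in mutant growth plate, while the control growth plates held 398, 226 and 251. The Sox9 pairs kept an excess and the Sox8 Sox9 pair did not. The difference was 1.07 ± 0.40 in mutants and 5.48 ± 0.40 in controls, a change of -4.41 ± 0.57 (adjusted p 0.0422). Il17b, a cytokine of the interleukin 17 family, stood between 1 and 3.06 in all 6 mutant libraries and at 84.9, 38.6 and 59.6 in control growth plate, a change of -4.18 ± 0.35 (adjusted p 0.00763). Hspg2, which encodes the large proteoglycan perlecan, stood at 85.2, 76.0 and 86.6 against 108, 107 and 84.0 in mutants and at 489, 353 and 427 in control growth plate. Its change was -2.07 ± 0.28 (adjusted p 0.0405), and that of Nrgn, a calmodulin-binding protein, was -3.76 ± 0.53 (adjusted p 0.0488). With no replicate block or a block per set the change of Nrgn was not called (0.0526 and 0.0816). With quantile normalisation or median ratio scaling the changes of Ppa1, Hspg2 and Nrgn were not called (0.0572 to 0.0862). With 0.1 added before log2, those of Ppa1 and Nrgn were not called either (0.066 and 0.0736). The changes of Hspg2 and Nrgn were lost without any single library (at most 0.165 and 0.224). That of Ppa1 was lost without any but the mutant Sox8 Sox9 growth plate (at most 0.173), and that of Il17b without 7 of the 12 (at most 0.131). The 7 were both controls of the Sox9 day 7 set, both mutants of the Sox9 day 14 set, and the Sox8 Sox9 libraries other than the mutant growth plate. Leaving out the mutant Sox8 Sox9 articular library removes the same pair as that growth plate, and gave 0.056 for Ppa1 and for Il17b.

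Aldh1a3, an enzyme that makes retinoic acid, showed a difference in mutants that controls did not have. It stood at 13.1, 14.8 and 14.7 in mutant articular cartilage and at 1.80, 2.09 and 1.19 in mutant growth plate, while all 6 controls lay between 8.65 and 21.6. Its difference was -2.51 ± 0.18 in mutants (adjusted p 1.23e-04) and 0.17 ± 0.18 in controls, a change of -2.68 ± 0.25 (adjusted p 0.014). Limch1, an actin-associated protein, was the gene that turned: it stood at 15.8, 16.0 and 13.1 in mutant articular cartilage and at 39.6, 36.9 and 50.3 in mutant growth plate. In controls it was at 8.79, 19.6 and 16.2 in articular cartilage and at 4.16, 8.18 and 9.01 in growth plate. The difference was 1.43 ± 0.19 in mutants and -0.96 ± 0.19 in controls (adjusted p 0.00192 and 0.0124), a change of 2.39 ± 0.27 (adjusted p 0.0252). The change of Limch1 was lost without any single library (0.0622 to 0.139) and with no replicate block (0.0507). That of Aldh1a3 was lost without any but the mutant Sox8 Sox9 growth plate (at most 0.137). Leaving out that library or its articular partner removes the same pair, and the adjusted p was 0.0472 and 0.0567.

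Further genes with a called change were chosen after their values were seen. Fgfr2, a receptor for fibroblast growth factors, stood at 27.5, 20.1 and 33.1 in mutant articular cartilage and at 26.1, 22.0 and 41.4 in mutant growth plate, with overlap. In control growth plate it was at 5.21, 9.59 and 13, below the 33.9 to 54.6 of control articular cartilage, and the change was 2.26 ± 0.25. Corin, a membrane serine protease, lay between 1 and 1.73 in all 6 mutant libraries and at 20.9, 18.4 and 13 in control articular cartilage, a change of 2.67 ± 0.31. Col13a1, a transmembrane collagen, stood at 4.32, 3.65 and 5.97 against 72.1, 42.4 and 73.6 in mutants, and its growth plate excess grew from 1.46 ± 0.18 to 3.47 ± 0.18. Slit2, a guidance ligand of Robo receptors, stood at 5.31, 4.04 and 4.27 against 26.2, 16.7 and 26.6, a difference of 2.10 ± 0.19 in mutants and 0.29 ± 0.19 in controls. Wnt11, a Wnt ligand, differed by -1.62 ± 0.19 in mutants and 0.60 ± 0.19 in controls. Each of these 5 changes was lost without any single one of the 12 libraries (adjusted p 0.0744 to 0.19).

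**Figure D4:**
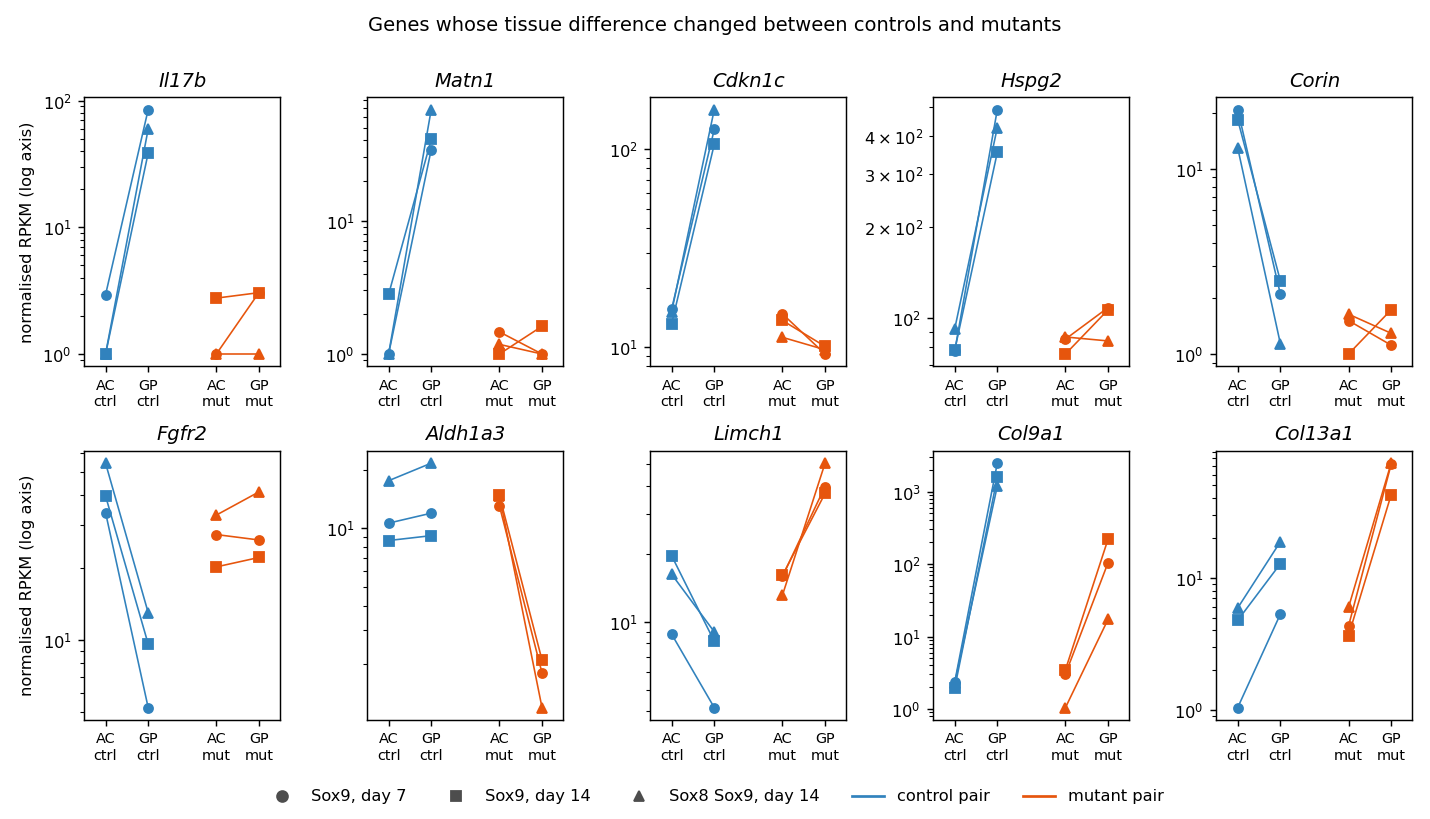
Normalised RPKM (log axis) of 10 genes whose tissue difference changed between controls (blue) and mutants (orange), in each articular (AC) and growth plate (GP) library; lines join the 2 tissues of a set. The steep blue lines of Il17b, Matn1, Cdkn1c and Hspg2 have no steep orange counterpart, Aldh1a3 and Limch1 show the reverse or a turn, and Col9a1 and Col13a1 run the same way with a different slope.

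Signalling genes were divided between the tissues. Of 20 Wnt and BMP genes 7 were higher in mutant growth plate and 5 in articular cartilage, 9 of the 12 also called the same way in controls. The 7 became 3 without any single mutant library of the Sox9 sets, and the 5 became 3 without any single mutant library and 2 in the Sox9 sets alone. On the growth plate side Bmp3, a BMP that restrains bone formation, stood at 10.9, 10.1 and 6.39 against 71.0, 65.1 and 85.6 (2.91 ± 0.22), and Wnt4 at 5.92, 9.32 and 4.18 against 35.6, 37.2 and 14.4 (1.95 ± 0.23). On the articular side the BMP antagonist Chrdl2 stood at 81.8, 38.7 and 31.0 against 1, 6.43 and 1 (-3.93 ± 0.47, adjusted p 0.00175, and 0.052 in the Sox9 sets alone), and the ligand Bmp6 at 30.8, 25.6 and 27.6 against 1.78, 1.60 and 3.20 (-3.21 ± 0.30). Bmp6 differed by -0.99 ± 0.30 in controls, which did not pass, and its change did not pass either (adjusted p 0.0981). Of 11 growth plate signalling genes Fgfr3, a receptor that slows growth plate division, was higher in growth plate (1.22 ± 0.32, adjusted p 0.048) and Npr2, the receptor of C-type natriuretic peptide, in articular cartilage (-1.65 ± 0.25). The call of Fgfr3 was lost without any single mutant library (adjusted p 0.0548 to 0.246) and without either control library of the Sox9 day 7 set (0.0758 and 0.0766), and with no replicate block (0.218).

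Of 11 chondrocyte transcription factors 4 were higher in mutant articular cartilage, among them Sox5, a partner of SOX9 on cartilage genes, and 0 in growth plate. Over all genes the shares were 5.91% and 4.3%. Sox5 stood at 20.6, 18.7 and 23.5 in mutant articular cartilage and at 8.67, 6.66 and 1.45 in mutant growth plate, a difference of -1.95 ± 0.38 (adjusted p 0.0135) against -0.34 ± 0.38 in controls. With the 6 mutant libraries fitted alone Sox5 was not called (adjusted p 0.0869). The other 3 were Arid5b (-0.89), Trps1 (-0.83) and Foxa3 (-1.20, adjusted p 0.0471). Without a single library the call of Foxa3 was always lost (0.0504 to 0.205), that of Trps1 without any mutant library or either control of the Sox9 day 14 set (at most 0.158), and that of Arid5b without either mutant library of the Sox9 day 7 set (at most 0.0674). In the Sox9 sets alone none of these 3 was called (0.196, 0.159 and 0.0749). The count of 4 was 1 in the Sox9 sets alone and without either mutant library of the Sox9 day 7 pair.

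Enzymes that build and remodel the matrix were also split by tissue. Of 14 matrix degrading enzymes and their inhibitors 5 were higher in mutant growth plate, Mmp9, Ctsk, Mmp14, Adamts9 and Adamts4, and 4 in articular cartilage, Mmp3, Htra1, Timp3 and Timp2. Adamts4 was not called without either mutant library of the Sox9 day 7 or the Sox8 Sox9 pair (at most 0.114), Timp2 without any single mutant library or either control library of the Sox8 Sox9 set (at most 0.18), and neither in the Sox9 sets alone (0.12 for both). Mmp3, the protease stromelysin, stood at 35.3, 51.9 and 52.3 in mutant articular cartilage and at 2.66, 1.60 and 1 in mutant growth plate (-4.13 ± 0.30). Of 12 genes of glycosaminoglycan synthesis 3 were higher in each tissue, the 3 of the growth plate becoming 0 to 2 without any single library. Chst3, a chondroitin sulfotransferase, stood at 18.7, 12.3 and 20.6 against 1.48, 1.68 and 1.92 (-2.73 ± 0.22), with -2.88 ± 0.22 in controls. Has2, which makes hyaluronan, stood at 7.02, 5.45 and 5.23 against 2.38, 1.08 and 1 (-1.51 ± 0.20), with 0.14 ± 0.20 in controls and a change that did not pass (adjusted p 0.0813). Of 13 genes of collagen processing 2 were higher in growth plate, the collagen chaperones Serpinh1 (1.52 ± 0.31) and Fkbp10 (1.09 ± 0.21). The prolyl hydroxylases Leprel1 (-2.80 ± 0.23), P4ha2 (-1.72 ± 0.22) and P4ha1 (-0.99 ± 0.24) were higher in articular cartilage. Without any single mutant library the calls of Serpinh1 and P4ha1 were lost (at most 0.0991 and 0.174), the latter also without any control library of day 14, and that of Fkbp10 without either mutant of the Sox9 day 7 or the Sox8 Sox9 pair (at most 0.0898). In the Sox9 sets alone P4ha1 (0.172) and Fkbp10 (0.101) were not called.

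Stress and glucose genes stood on the articular side. Of 14 immediate early and stress genes 6 were higher in mutant articular cartilage and 0 in growth plate, with a median of -1.0 against -0.05 over all genes. Dusp1, a phosphatase that shuts off MAP kinases, stood at 99.4, 57.7 and 121 against 8.37, 7.20 and 5.13 (-3.53 ± 0.26), with -2.61 ± 0.26 in controls. The heat shock chaperone Hspa1b differed by -3.12 ± 0.33, and the AP-1 subunit Junb, called in mutants only, by -1.63 ± 0.21. Of 12 genes of glycolysis and hypoxia 7 were higher in articular cartilage and 0 in growth plate, against 5.91% and 4.3% over all genes. The list median was -0.94, and 6 of the 7 were also called in controls. Slc2a1, the glucose transporter GLUT1, stood at 64.0, 61.8 and 60.4 against 15.9, 10.0 and 4.64, a difference of -2.63 ± 0.30. The hypoxia target Bnip3 differed by -2.46 ± 0.29. The count of 7 fell to 4 with median ratio scaling and to 3 in the Sox9 sets alone. It was 3 without either mutant library of the Sox9 day 7 pair, 2 without one of the Sox9 day 14 pair and 4 without any library of the Sox8 Sox9 set. Fibroblast and tendon genes gave 4 of 14 on the articular side, with Dpt, the matrix protein dermatopontin, at -4.69 ± 0.54, Dcn, the proteoglycan decorin, at -2.29 ± 0.35 and Ly6a, a membrane protein of stromal progenitors, at -3.12 ± 0.58, the last not called in the Sox9 sets alone (adjusted p 0.0765). Dcn was not called without either mutant library of the Sox9 day 7 pair (at most 0.0508), which left 2 of the 4. Of 13 cell cycle genes 0 were called in the limma test, and 0 had an unadjusted p under 0.05.

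Among the 10 largest growth plate differences Mt3 and Cpz, like Nhedc2, stood on none of the gene lists. Mt3, a metal-binding metallothionein, stood at 3.27, 1 and 2.51 in mutant articular cartilage and at 59.2, 63.8 and 88.1 in mutant growth plate (4.50 ± 0.33), with 2.62 ± 0.33 in controls. Cpz, a carboxypeptidase with a Wnt-binding domain, stood at 1.57, 1.74 and 1 against 19.8, 31.9 and 73.7 (3.94 ± 0.50, adjusted p 0.00226), and in controls the difference of 1.71 ± 0.50 did not pass (adjusted p 0.0646), nor did the change (adjusted p 0.308). Of the 20 genes with the largest differences in either direction, Col11a1 alone lost its call in any alternative.

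**Figure D5:**
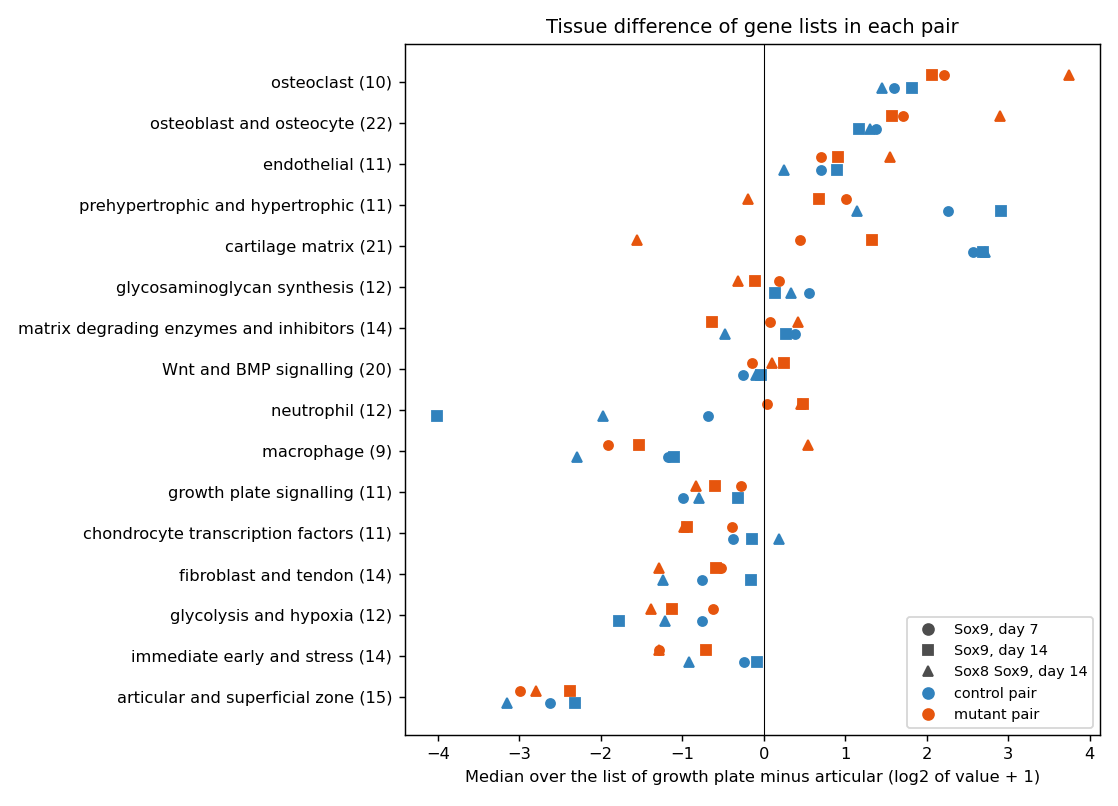
Median over each gene list of growth plate minus articular, log2(value + 1), in the 3 control pairs (blue) and 3 mutant pairs (orange), with the number of measured genes in brackets. Articular genes lie at -2.31 or below in all 6 pairs and osteoclast genes at 1.45 or above, while the cartilage matrix medians run from -1.56 to 1.33 in mutants and from 2.57 to 2.72 in controls.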

How the data were processed

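RNA was measured in 12 libraries, 1 per genotype, day and tissue. Per the labels' protocols, RNA from laser-captured sections became stranded total RNA libraries by a low-input kit. Deposited values are normalised RPKM, which the authors name NRPKM per the file headers. For the further normalisation, aligner, counter and annotation, details were not given in the sources used here. Coordinates are on mm10 per the submitters' processing notes. Whole reads could not be recovered, so depth is unknown. GENCODE M21 held 14293 of the 14712 identifiers and served to find overlapping genes; symbols are those of the file.

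Values were taken as log2(value + 1) without a filter. limma 3.58.1 (robust, mean trend, statmod 1.5.0, R 4.3.3) fitted all 12 libraries with a block per genotype and day, leaving 4 residual degrees of freedom, and Benjamini-Hochberg adjustment ran over all genes. The fit was run on simulated data with normally distributed noise and no floor, unlike the listed values, so that run did not test calls near the floor. The pairing comes from shared alleles and day. The deviations of both tissues from their group means correlated at 0.268 to 0.303 in mutants and 0.105 to 0.415 in controls across genes for libraries of the same set. For libraries of different sets the values ran from -0.174 to -0.112 in mutants and from -0.264 to 0.084 in controls. Deviations from a group mean cancel over its sets, so positive values for the same set push those for different sets down. Sex also goes with the set, so these correlations do not show that tissues came from the same animals.

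Genes were named by a rule: Sox9, Sox8 and Acan, the 10 largest called differences each way with a mean of at least 10, up to 2 called members of each list, and up to 6 kept, lost, new or turned genes (4 for turned), by size. Other list members and changed genes were named after their values were seen. The members and lists were chosen with earlier results of these data known. Of the genes the rule names, 1 is left out of the text. Alternatives were another added value, a mean of at least 5, other scalings, other blocks, no robust or trend moderation, fewer libraries and each library left out. The last kept the block per genotype and day, so each library left out removed its pair.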

Additional observations from a re-analysis of the deposited data

Results flagged for a closer look

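The tissue difference changed between controls and mutants for 27 genes by the test of the interaction, and 26 with a gene name are given here as mutants minus controls on the log2(value + 1) scale. Among genes higher in control growth plate the difference shrank for Col9a1 (-4.53), Ppa1 (-4.41), Matn1 (-4.25), Il17b (-4.18), Nrgn (-3.76), Cdkn1c (-3.46), Nid2 (-2.85), Zcchc5 (-2.48), Loxl3 (-2.40), Panx3 (-2.32), Capn6 (-2.32), Peg3 (-2.22), Hspg2 (-2.07), Slc35e3 (-1.92) and Rras2 (-1.88). A difference toward articular cartilage appeared for Aldh1a3 (-2.68), Wnt11 (-2.22) and Eps8 (-2.13) and grew for Cx3cl1 (-2.22), the chemokine fractalkine, which was at 1.47 or less in mutant growth plate and at 76.9, 44.8 and 42.0 in mutant articular cartilage. Among genes higher in control articular cartilage the difference shrank for Corin (2.67), Fgfr2 (2.26) and Csrp1 (1.80), and Limch1 turned (2.39). A difference toward growth plate appeared for Rasl11a (2.25) and Slit2 (1.81) and grew for Col13a1 (2.01).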

How the results depend on the processing

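Depth is unknown, and 1 library stood for each condition. The counts of calls depended on the libraries in the fit. No named gene with a call changed sign under any alternative; Sox8, which had none, went from -0.08 to 0.75 in the Sox9 sets alone or without either mutant library of the Sox8 Sox9 set. Mutants gave 1501 calls, 781 with the 6 compared libraries alone and 759 with the 2 Sox9 sets alone, and 796 to 1362 leaving out each library. Controls gave 1896, 866, 1058 and 894 to 2068 likewise, and the shared calls 876, 366, 480 and 486 to 735. The 27 changes became 15 with 0.1 added, 0 in the Sox9 sets alone, 1 without robust and trend moderation, and 0 to 4 leaving out each library. With quantile normalisation 19 of the 27 held, and with median ratio scaling also 19. Leaving out a library removes its pair from the comparison, and fewer libraries leave fewer residual degrees of freedom. Otherwise the cause was not tested. The pairing by set was kept as a block. Without that replicate block there were 1269 calls in mutants, 1524 in controls and 713 shared calls. The changes numbered 22, with 13 of them among the 27. With median ratio scaling the control split of 627 higher in growth plate and 1269 higher in articular cartilage became 913 and 1059, and with quantile normalisation 899 and 1003; the control median over all genes moved from -0.10 to 0.02 and 0.00. The mutant split was 712 and 767, and 734 and 778. The added value of 5 and the filter at a mean of 5 changed no count by over 1.5 times. Of 55 calls of named genes 42 held in the Sox9 sets alone and 50 with no replicate block. With the 6 mutant libraries fitted alone, 41 of the 47 that were tested held. Those lost were Foxa3 (adjusted p 0.14), Col11a1 (0.0998), Sox5 (0.0869), Cdh5 (0.0783), Fgfr3 (0.0636) and Lcn2 (0.0511). List counts under these alternatives were chosen after seeing the data.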
